A study of Mus musculus with 12 samples.

Results

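Canonical histone genes were followed here in polyadenylated RNA of splenic B cells on their way to antibody-secreting cells. The genes were taken by symbol, as every Hist1h to Hist4h gene with at least 1 FPKM in at least 2 of 12 libraries, and FPKM is the deposited unit, fragments scaled by transcript length and by the mapped fragments of the library. Of 68 such symbols among 24325, 49 met the rule. They comprised 5 genes of the linker histone H1 and 8 of H2A, 14 of H2B, 10 of H3 and 12 of H4, the core histones. By symbol, 41 lie in the Hist1 cluster on mouse chromosome 13, 5 in Hist2 on chromosome 3, 2 in Hist3 on chromosome 11 and 1 in Hist4 on chromosome 6. The cells came from C57BL/6 mice carrying 1 Prdm1 allele with a green fluorescent protein (gfp) reporter, Prdm1+/gfp, where Prdm1 encodes Blimp1, the transcription factor of plasma cells. The mice were Mzb1-/- (ko) or Mzb1+/+ (wt), and the control mice carried the reporter allele too. B cells selected with B220 beads were kept for 4 days in 25 µg/ml lipopolysaccharide and sorted into 3 populations. Activated B cells lacked both CD138 and the reporter, pre-plasmablasts had the reporter without CD138, and plasmablasts had both. Each of the 6 groups of genotype and population had 2 libraries. The labels do not say whether these came from separate mice, so p-values measure only the spread between these libraries.

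Canonical histone genes supply the histones that package newly copied DNA, and their mRNAs rise in S phase and fall when DNA synthesis stops. These mRNAs usually end just after a conserved stem-loop and carry no poly(A) tail. The stem-loop binding protein SLBP and the U7 small nuclear ribonucleoprotein direct the cut. Some of the same genes also give longer, polyadenylated mRNAs by reading past the stem-loop to a downstream signal, and this form is known from differentiating and resting cells. The libraries were selected with oligo-dT, so the values describe polyadenylated histone transcripts and whatever other histone mRNA passed the selection, and not the whole histone mRNA of the cells.

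The stem-loop is the element around which the transcript end is defined, and it is shown for 6 genes with a match to which the results return. Each line gives DNA letters of the sense strand after the stop codon, from 5′ to 3′, from the GENCODE M21 transcripts (GRCm38). The 16 bases of the stem and loop are in capitals, with 5 bases on each side.
Hist1h1c: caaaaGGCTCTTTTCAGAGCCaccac
Hist1h2bg: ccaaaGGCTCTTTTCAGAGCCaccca
Hist3h2a: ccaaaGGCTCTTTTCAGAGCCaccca
Hist1h2bb: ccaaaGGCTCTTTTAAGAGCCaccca
Hist1h3c: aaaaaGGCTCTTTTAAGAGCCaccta
Hist1h4i: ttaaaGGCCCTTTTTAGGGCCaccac
The match required a 6-base stem that starts with GG, a 4-base loop and a closing stem with at most 1 mismatch. The loop had to read TT, then T or C, then T, C or A. After the stop codon the match was found in 34 of the 49 genes, and in 34 of the 40 whose annotated transcript runs at least 20 bases past the stop codon. Among 21810 other protein-coding genes it was found in 3.06%. Those were searched over the whole longest transcript, so the 2 searches are not alike. How far the annotated transcript continues past the loop differed widely between these 6 genes: 1643 bases in Hist3h2a, 840 in Hist1h1c, 330 in Hist1h4i, 155 in Hist1h2bg, 74 in Hist1h3c and 23 in Hist1h2bb. Hist1h2bc and Hist2h2be, which together with Hist1h1c are known to give polyadenylated transcripts, had no match after the stop codon of their annotated transcripts, and that of Hist1h2bc has 2 exons.

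The 12 libraries summed to 418966 to 581262 FPKM, and since no counts were used, sequencing depth is unknown and no counting interval can be given. Mzb1, the gene deleted, was at 273 to 1008 FPKM in ko libraries and at 845 to 17359 FPKM in wt libraries, lower in ko in every population. The plasma cell markers Sdc1, Prdm1, Xbp1, Irf4 and Jchain were higher in plasmablasts than in activated B cells of both genotypes (5 of 5 called in each), and 4 of 5 B cell markers, all except Cd79a, were lower. Of 6 T cell markers 2 were tested, with Cd3g higher in plasmablasts of both genotypes and Lck not called, while Cd3e was at most 0.138 FPKM and Cd8a at most 0.0256 FPKM. The red cell genes Hbb-b1 and Hba-a1 were listed at 0 throughout. Low values followed 1 pattern of shared ratios in 8 libraries and another in the 4 others, which were both ko plasmablast libraries and the second ko replicate of each other population. In plasmablasts this pattern and the genotype cannot be told apart. Replicate 1 of wt stood apart in all 3 populations by Xist, at 33.3 to 81.4 FPKM against at most 0.389 FPKM in the other 9 libraries. Calls of the named genes that were lost without the wt replicate 1 libraries, or with a term for the pattern of low values, are given with the genes.

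Polyadenylated canonical histone RNA was a small fraction of the library in every population, and it was larger in pre-plasmablasts and plasmablasts than in activated B cells. Summed over the 49 genes it came to 77.8 and 116 FPKM in ko and 113 and 120 FPKM in wt activated B cells. In pre-plasmablasts the sum was 202 and 251 FPKM in ko and 271 and 300 FPKM in wt libraries, and in plasmablasts 268 and 304 FPKM in ko and 291 and 352 FPKM in wt libraries. The lowest pre-plasmablast or plasmablast library was thus above the highest activated B cell library in both genotypes. As a share of all FPKM the sum lay between 0.0181% and 0.0605%. The RNA of bulk samples does not tell fewer expressing cells from less RNA per cell, and the populations were not sorted by cell cycle phase.

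Hist1h1c, a linker histone gene, and Hist1h4i, an H4 gene, had the highest levels averaged over the 12 libraries. The other 47 genes together still made up most of the sum in activated B cells and pre-plasmablasts. Hist1h1c made up 5.86% to 7.39% of the sum in activated B cells, 24.5% to 26.7% in pre-plasmablasts and 30.3% to 36.5% in plasmablasts. Hist1h4i made up 5.89% to 23.5%, 8.68% to 18.9% and 8.04% to 17.3% in the same populations. Without Hist1h1c and Hist1h4i the other 47 genes summed to 67.5 to 88.2 FPKM in activated B cells, 131 to 168 FPKM in pre-plasmablasts and 142 to 184 FPKM in plasmablasts. The remaining genes therefore also summed higher outside activated B cells. Most single genes were low. Averaged over the 12 libraries, 9 genes reached 5 FPKM, led by Hist1h1c at 57.8 FPKM, Hist1h4i at 32.2 FPKM, the H2A gene Hist3h2a at 12.03 FPKM and the H3 gene Hist1h3c at 10.7 FPKM. The median gene averaged 1.84 FPKM. These levels depend on the transcript lengths of the annotation the authors used, which is not given in the sources used here.

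**Figure D1:**
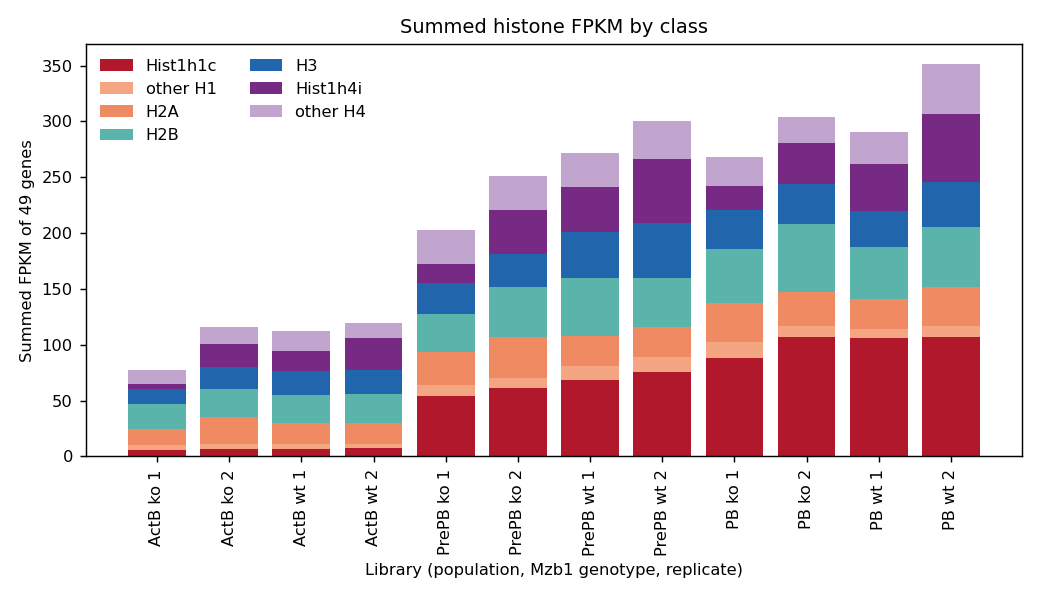
Summed FPKM of the 49 histone genes in each of the 12 libraries (vertical axis, FPKM), stacked by histone class, with Hist1h1c and Hist1h4i drawn apart from the rest of their classes. Activated B cell (ActB) bars end between 77.8 and 120 FPKM, while those of pre-plasmablasts (PrePB) and plasmablasts (PB) end between 202 and 352 FPKM, and the Hist1h1c segment differs most in height.

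Ranges by class showed the same order of populations for H1 and less separation for H2A. H1 genes summed to 9.85 to 11.5 FPKM in activated B cells, 63.8 to 89.4 FPKM in pre-plasmablasts and 102 to 117 FPKM in plasmablasts. H2A genes summed to 15.0 to 23.5 FPKM in activated B cells, 26.1 to 36.9 FPKM in pre-plasmablasts and 26.5 to 35.3 FPKM in plasmablasts. H2B genes reached 22.0 to 26.6, 33.2 to 51.9 and 46.6 to 61.0 FPKM in the same 3 populations. H3 genes reached 13.7 to 21.5, 27.8 to 49.3 and 32.5 to 40.2 FPKM, and H4 genes 17.4 to 42.4, 47.4 to 91.0 and 47.6 to 106 FPKM. For all 5 classes the activated B cell libraries were below those of both other populations. H1 owed most of its difference to 1 gene, since the other 4 H1 genes summed to 3.99 to 4.87, 8.46 to 13.6 and 8.25 to 13.9 FPKM.

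**Figure D2:**
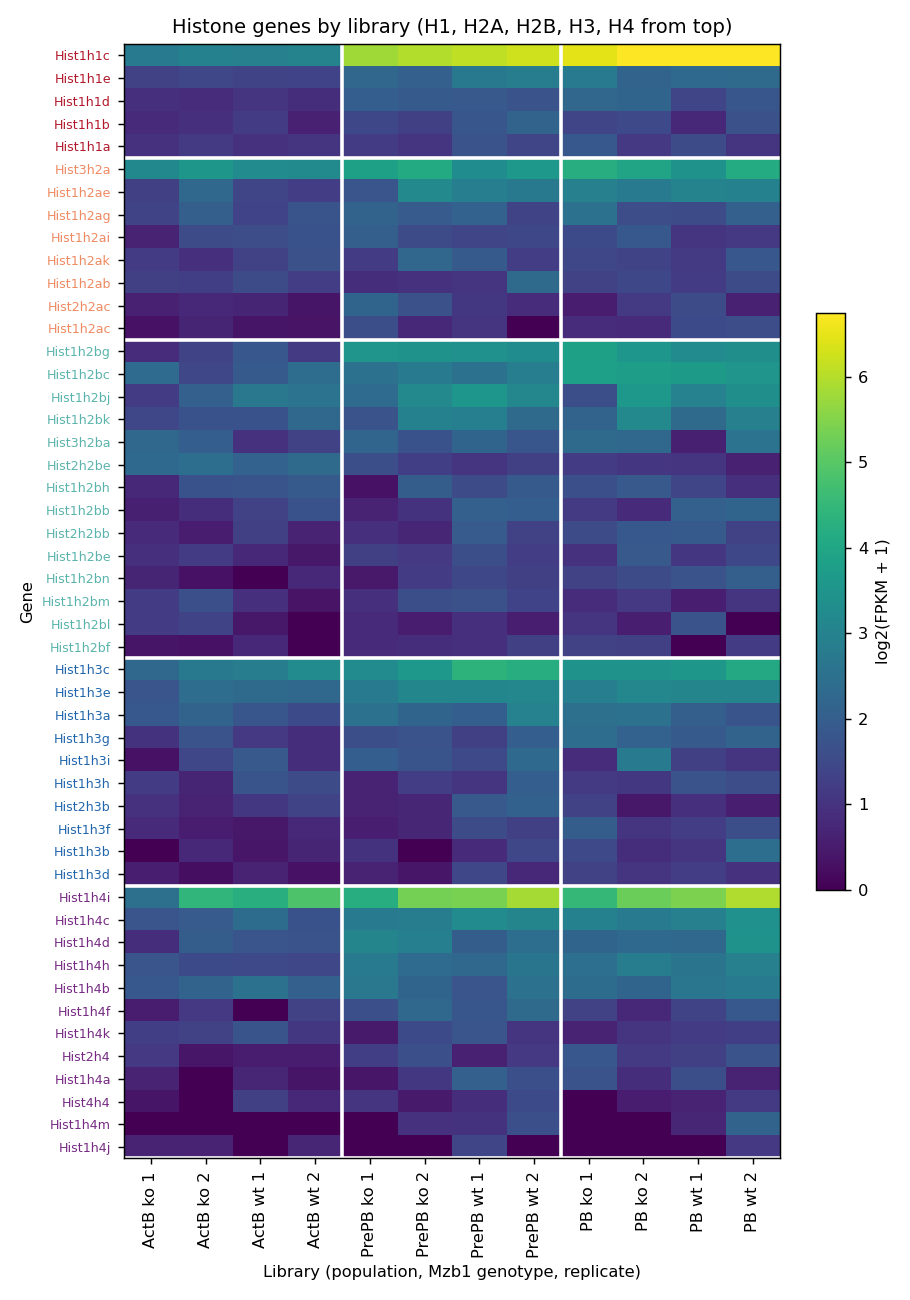
Level of each of the 49 genes (rows, grouped by class from H1 at the top to H4 at the bottom) in each library (columns), coloured by log2(FPKM + 1). Hist1h1c and Hist1h4i are the brightest rows, with library values up to 107 and 60.9 FPKM, and Hist2h2be is dimmer in pre-plasmablasts and plasmablasts than in activated B cells.

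Tests used limma on log2(FPKM + 1) over all 11069 genes that passed the same filter as the histone genes, with p-values adjusted over all of them. In plasmablasts against activated B cells, 20 of the 49 genes were higher in ko cells and 20 in wt cells (40.8% in each), where 31.2% of all tested genes were higher in ko and 31.0% in wt. A single gene, Hist2h2be, was lower in each genotype (2.04%), where 30.9% of all tested genes were lower in ko and 31.0% in wt. The median log2 change over the 49 genes was 0.73 in ko and 0.63 in wt, against -0.0082 and -0.014 over all tested genes. Of the genes higher in plasmablasts, 15 were called in both genotypes, 75% of either list. How many of all tested genes were called in both genotypes was not counted, so no background stands beside this share. These 15 were Hist1h1c, Hist1h1d and Hist1h1e among linker genes, Hist1h2ae and Hist3h2a among H2A genes, Hist1h2bc, Hist1h2bg and Hist1h2bn among H2B genes, Hist1h3c, Hist1h3d, Hist1h3e, Hist1h3f and Hist1h3g among H3 genes, and Hist1h4c and Hist1h4h among H4 genes. When libraries were scaled to the same total with small RNA genes left out, the median over all tested genes became -0.27 in ko and -0.38 in wt, and 15 histone genes were higher and 1 lower in ko, and 13 higher and 3 lower in wt. With a term for the pattern of low values, 13 were higher and 2 lower in ko. The shares over all tested genes given above come from the fit without these changes, and are not the background of these counts. The rule for membership weighs on these counts: 16 of the 49 genes reached 1 FPKM in fewer than 2 activated B cell libraries. These genes needed the other populations to pass. No gene passed through activated B cells alone. The 2 genes under 2 libraries in both other populations, Hist1h4j and Hist1h4m, reached 1 FPKM in no activated B cell library. Of the 15 genes at 1 FPKM or more in all 12 libraries, 11 were higher in ko plasmablasts and 9 in wt plasmablasts, and none was lower. The share over all genes at that level in all 12 libraries was not computed. The 31.2% and 31.0% above also cover genes that missed this level.

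Markers of other cell types moved between the populations as well. The macrophage marker Adgre1 was at 0.844 and 0.238 FPKM in ko and 0 and 0.0963 FPKM in wt plasmablasts, against 28.2 and 12.6 FPKM in ko and 7.84 and 13.2 FPKM in wt activated B cells, and its limma log2 change was -3.72 in ko (adjusted p = 4.80e-06) and -3.42 in wt (adjusted p = 9.14e-06). Of the 5 myeloid markers in the files 2 were tested and Adgre1 was the 1 called. The other, Lyz2, was at 1.40 and 3.80 FPKM in ko and 0.316 and 0 FPKM in wt plasmablasts. In activated B cells Lyz2 was at 1.73 and 0.205 FPKM in ko and 0 and 1.43 FPKM in wt. Csf1r was at most 0.121 FPKM, S100a8 at most 0.413 FPKM, and Elane was listed at 0. Cd3g of the T cell list was at 5.46 and 8.17 FPKM in ko and 4.12 and 3.19 FPKM in wt plasmablasts, against 0.808 and 0.356 FPKM in ko and 0.207 and 0.596 FPKM in wt activated B cells, a limma log2 change of 2.30 in ko (adjusted p = 1.97e-05) and 1.74 in wt (adjusted p = 0.000159). The 6 T cell markers summed to 11.6 to 15.6 FPKM in ko and 7.93 to 10.98 FPKM in wt plasmablasts, against 7.62 to 10.6 FPKM in ko and 7.23 to 9.54 FPKM in wt activated B cells. The part of such cells in the histone values was not tested.

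Pre-plasmablasts against activated B cells gave a related count in wt cells and a smaller one in ko cells. In ko cells 13 of 49 genes were higher (26.5%, against 27.1% of all tested genes) and 1 was lower (2.04%, against 27.0%). In wt cells 21 were higher (42.9%, against 27.1%) and 1 was lower (2.04%, against 26.3%). The share of higher genes in ko was thus near that of all genes, while in both genotypes the share of lower genes was under it. The rule for membership, described above, weighs on these counts as well. Called higher in both genotypes were 9 genes, 69.2% of the ko list and 42.9% of the wt list. The overlap among all tested genes was not counted here either. Whether the step differed between the genotypes was tested gene by gene, and no histone gene was called (4 at an unadjusted p below 0.05), with 0.0361% of all genes called. The wt total of 22 calls became 13 without replicate 2 of wt activated B cells and 14 with no filter on low values. Scaled to the same total, 10 genes were higher and 1 lower in ko, and 16 higher and 1 lower in wt. The shares over all tested genes given above come from the unscaled fit, and are not the background of these counts.

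Plasmablasts and pre-plasmablasts differed in few histone genes. In ko cells 2 genes were higher, Hist1h1c and Hist1h2bc, and 0 lower, where 6.57% and 4.24% of all genes were called. In wt cells Hist1h1c was higher and the H3 gene Hist2h3b lower, where 5.02% and 3.70% of all genes were called. At an unadjusted p below 0.05 limma placed 5 histone genes higher and 1 lower in ko plasmablasts, and 3 higher and 5 lower in wt plasmablasts. The difference of this step between the genotypes was called for 0 histone genes (7 at an unadjusted p below 0.05) and 0% of all genes, and that of the whole span from activated B cell to plasmablast for 0 histone genes (4 at an unadjusted p below 0.05) and 0.0452% of all genes.

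**Figure D3:**
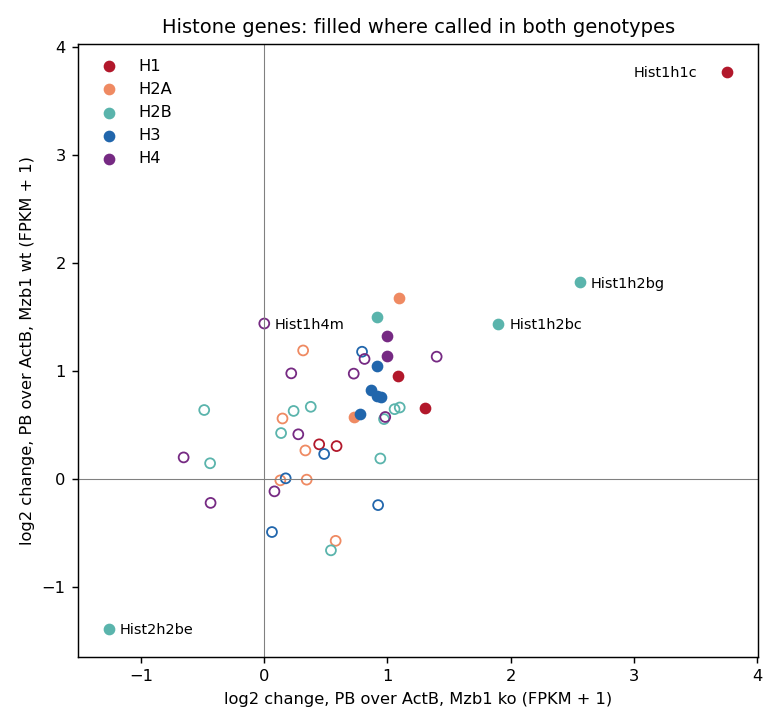
Log2 change of FPKM + 1 in plasmablasts over activated B cells for each of the 49 genes, in ko cells (horizontal axis) and in wt cells (vertical axis). Filled points are called in both genotypes (15 higher and Hist2h2be lower), open points are not, and Hist1h1c stands at 3.76 in ko and 3.77 in wt.

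Linker histones bind DNA where it enters and leaves the nucleosome, and Hist1h1c, also named H1f2, encodes a replication-dependent subtype that is also made outside S phase. Hist1h1c had 5.75 and 6.79 FPKM in ko and 6.65 and 7.14 FPKM in wt activated B cells. It had 54.0 and 61.6 FPKM in ko and 68.3 and 75.8 FPKM in wt pre-plasmablasts, and 88.3 and 107 FPKM in ko and 106 and 107 FPKM in wt plasmablasts. The 3 populations did not overlap in either genotype. The limma log2 change of plasmablasts over activated B cells was 3.76 in ko (SE 0.11, adjusted p = 1.73e-09) and 3.77 in wt (SE 0.11, adjusted p = 1.83e-09), 13.5-fold and 13.6-fold on the FPKM + 1 scale. Pre-plasmablasts already exceeded activated B cells by 3.02 in ko and 3.21 in wt on the log2 scale, and plasmablasts exceeded pre-plasmablasts by 0.74 in ko (adjusted p = 0.0031) and 0.56 in wt (adjusted p = 0.0146). The wt step between the last 2 populations was no longer called by limma without replicate 1 of wt plasmablasts (adjusted p = 0.0676), without replicate 2 of wt plasmablasts (adjusted p = 0.0885), without replicate 1 of wt pre-plasmablasts (adjusted p = 0.0959) or without replicate 1 of wt in all populations (adjusted p = 0.252). Its annotated transcript of 1560 bases holds a poly(A) signal hexamer in its last 40 bases, and 8.54% of its 50-base windows also occur in another gene.

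Hist1h1d and Hist1h1e, which encode further replication-dependent H1 subtypes, rose as well, at far lower levels. Hist1h1d had 0.895 and 0.822 FPKM in ko and 1.03 and 0.850 FPKM in wt activated B cells, 3.01 and 2.77 FPKM in ko and 2.73 and 2.34 FPKM in wt pre-plasmablasts, and 3.66 and 3.498 FPKM in ko and 1.64 and 2.53 FPKM in wt plasmablasts. Its log2 change in plasmablasts over activated B cells was 1.30 in ko (adjusted p = 3.35e-05) and 0.65 in wt (adjusted p = 0.00395) by limma. Hist1h1e had 1.52 and 1.73 FPKM in ko and 1.61 and 1.54 FPKM in wt activated B cells, against which the 8 libraries of the other populations lay between 3.23 and 6.17 FPKM with no overlap. Its change was 1.08 in ko and 0.95 in wt. The annotated transcript of Hist1h1e overlaps that of the H2B gene Hist1h2be on the same strand, so fragments of the shared stretch cannot be told apart. Hist1h1b passed the test in wt pre-plasmablasts over activated B cells alone, with 2.94 ± 0.660 against 0.920 ± 0.524 FPKM (SD, n = 2 each), and Hist1h1a passed in no comparison, at 0.937 to 2.65 FPKM over all libraries.

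H2A and H2B genes lie largely in head-to-head pairs that share the sequence between their start sites, and 11 of the 14 pairs found among the 68 symbols joined an H2A with an H2B gene of the Hist1 cluster. Among their promoters the octamer ATTTGCAT, the site bound by the POU factors Oct1 and Oct2, occurred on either strand within 250 bases upstream of the start in 5 of 8 H2A and 5 of 12 H2B genes that the RefSeq promoter table holds. It occurred in none of the 5 H1, 8 H3 and 11 H4 promoters of the table, and in 1.61% of all 27025 promoters. The CCAAT box occurred in 81.8% of the 44 histone promoters against 34.5% of all, and 3 of 11 H4 promoters held it against every promoter of the other classes. The TATA motif, searched as TATAAA, occurred in 52.3% of the histone promoters against 13.0% of all. The AC box known from H1 promoters, searched as AAACACA, occurred in 4 of 5 H1 promoters and in 6.22% of all. All were searched on both strands, and a match is a description of the sequence alone.

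The upstream 200 bases are shown for the leading H1 gene, for an H2B gene that shares its promoter with an H2A gene, and for the H2B gene that differed between genotypes. The pair that shares a promoter, Hist1h2bg and its H2A neighbour Hist1h2ae, was called higher in plasmablasts over activated B cells in each genotype. The sequences are from RefSeq on GRCm38.p6, 5′ to 3′ toward the start site. They lie on the plus strand of the chromosome in all 3 cases, at chr13:23738607-23738806 for Hist1h1c, chr13:23571200-23571399 for Hist1h2bg and chr13:23746534-23746733 for Hist1h2bb. Capitals mark the octamer, the CCAAT box, the TATA motif and the AC box on either strand, and no match shown overlaps another.
Hist1h1c: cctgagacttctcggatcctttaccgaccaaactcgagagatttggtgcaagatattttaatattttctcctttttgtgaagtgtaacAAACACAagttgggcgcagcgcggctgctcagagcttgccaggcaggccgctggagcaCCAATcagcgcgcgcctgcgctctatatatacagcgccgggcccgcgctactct
Hist1h2bg: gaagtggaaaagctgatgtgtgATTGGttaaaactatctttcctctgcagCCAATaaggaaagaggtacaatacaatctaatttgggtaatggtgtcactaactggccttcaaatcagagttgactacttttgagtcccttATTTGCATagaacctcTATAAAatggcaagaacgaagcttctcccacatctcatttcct
Hist1h2bb: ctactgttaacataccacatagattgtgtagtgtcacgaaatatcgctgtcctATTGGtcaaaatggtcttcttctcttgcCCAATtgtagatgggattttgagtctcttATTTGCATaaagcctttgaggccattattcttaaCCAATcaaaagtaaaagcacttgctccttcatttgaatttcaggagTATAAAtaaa
In Hist1h2bg, the gene next to Hist1h2ae, the octamer begins 59 bases and the TATA motif 43 bases before the start. In Hist1h2bb the octamer begins 90 bases before the start. Hist1h1c holds the AC box 112 bases and the CCAAT box 54 bases before its start.

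Hist1h2bg, with its neighbour Hist1h2ae, gave the largest H2B and H2A changes in plasmablasts over activated B cells. Hist1h2bg had 0.824 and 1.63 FPKM in ko and 2.55 and 1.22 FPKM in wt activated B cells, 10.4 and 9.94 FPKM in ko and 9.69 and 8.78 FPKM in wt pre-plasmablasts, and 13.2 and 10.8 FPKM in ko and 8.57 and 9.25 FPKM in wt plasmablasts. Pre-plasmablasts and plasmablasts were above activated B cells in every library. The change in plasmablasts was 2.56 in ko (SE 0.22, adjusted p = 2.45e-06) and 1.82 in wt (SE 0.22, adjusted p = 3.58e-05), and in pre-plasmablasts 2.35 in ko and 1.86 in wt, all as limma log2 changes over activated B cells. Hist1h2ae, whose start lies 176 bases from that of Hist1h2bg on the other strand, had 1.43 and 3.88 FPKM in ko and 1.66 and 1.36 FPKM in wt activated B cells, 2.41 and 8.02 FPKM in ko and 6.36 and 5.5997 FPKM in wt pre-plasmablasts, and 6.69 and 6.03 FPKM in ko and 7.12 and 6.87 FPKM in wt plasmablasts. Its change in plasmablasts was 1.68 in wt (adjusted p = 0.00353), not called without replicate 1 of wt in all populations (adjusted p = 0.0782), and 1.09 in ko (adjusted p = 0.0322). The ko call was lost by limma without replicate 1 of ko activated B cells (adjusted p = 0.262) or without replicate 1 or 2 of ko plasmablasts (adjusted p = 0.116 and 0.0823). In pre-plasmablasts over activated B cells the limma log2 change of Hist1h2ae was 1.48 in wt (adjusted p = 0.00897). It was not called in ko, where the libraries overlapped. Of the 50-base windows, 49.7% of Hist1h2bg and 43.2% of Hist1h2ae occur in other genes.

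**Figure D4:**
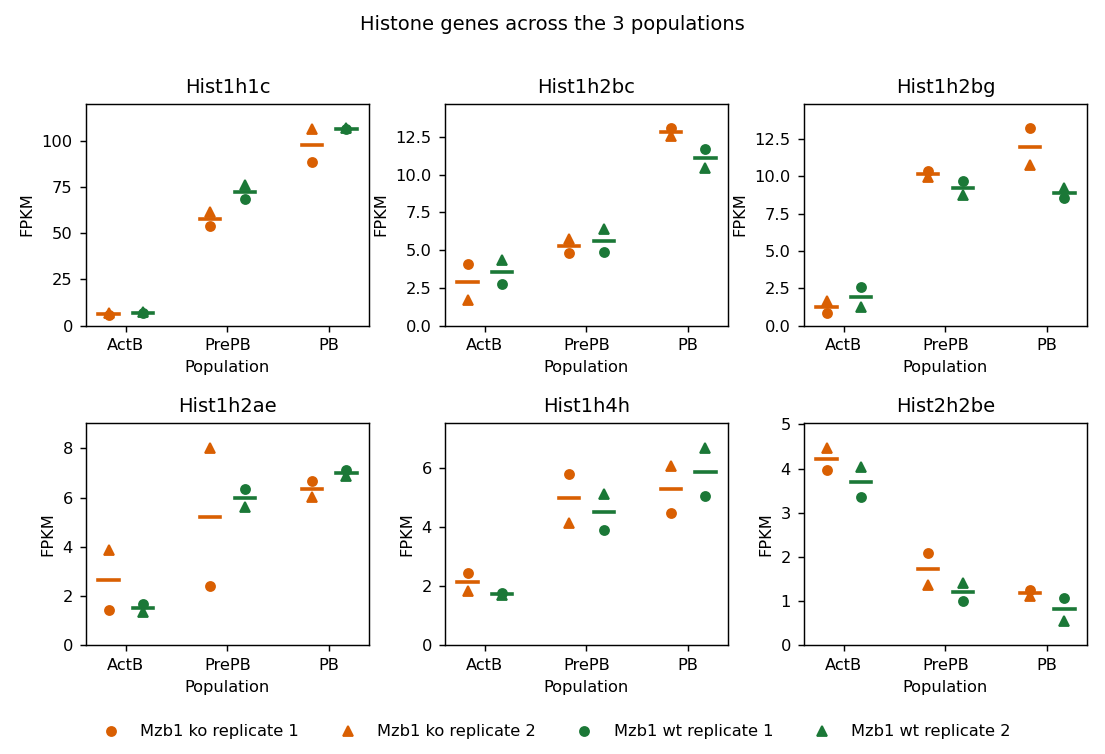
FPKM of 6 histone genes in the 3 populations, with ko libraries left of wt libraries in each, 1 symbol for each library and a bar at the mean of 2. Hist1h1c, Hist1h2bc, Hist1h2bg, Hist1h2ae and Hist1h4h are lowest on average in activated B cells, and Hist2h2be is highest there.

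The H2B genes Hist1h2bc and Hist2h2be, both known for polyadenylated transcripts, went opposite ways. Hist1h2bc had 4.09 and 1.70 FPKM in ko and 2.74 and 4.32 FPKM in wt activated B cells, 4.79 and 5.74 FPKM in ko and 4.88 and 6.39 FPKM in wt pre-plasmablasts, and 13.1 and 12.6 FPKM in ko and 11.7 and 10.5 FPKM in wt plasmablasts. It thus stood highest in plasmablasts, with no overlap with the pre-plasmablasts of the same genotype. The limma log2 change of plasmablasts over activated B cells was 1.90 in ko (SE 0.26, adjusted p = 9.87e-05) and 1.44 in wt (SE 0.26, adjusted p = 0.000714), the second at adjusted p = 0.0549 without replicate 1 of wt in all populations. Against pre-plasmablasts it was 1.15 in ko (adjusted p = 0.0211) and 0.87 in wt (adjusted p = 0.0677). The ko call was lost without any 1 of the 4 ko libraries compared, at adjusted p = 0.0587 to 0.128 by limma.

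Hist2h2be had 3.96 and 4.47 FPKM in ko and 3.36 and 4.04 FPKM in wt activated B cells, 2.09 and 1.37 FPKM in ko and 1.01 and 1.41 FPKM in wt pre-plasmablasts, and 1.24 and 1.12 FPKM in ko and 1.07 and 0.546 FPKM in wt plasmablasts. All 4 activated B cell libraries were above all 8 others. The change in plasmablasts was -1.26 in ko (SE 0.19, adjusted p = 0.00018) and -1.39 in wt (SE 0.19, adjusted p = 8.46e-05), and in pre-plasmablasts -0.95 in ko and -1.09 in wt, by limma over activated B cells. None of the 50-base windows of its 2620-base transcript occurs in another gene. Its divergent partner Hist2h2ac, an H2A gene with a start 239 bases away, was called higher in ko pre-plasmablasts over activated B cells, at 3.52 and 2.17 FPKM against 0.541 and 0.686 FPKM, a log2 change of 1.23 (adjusted p = 0.00720) that limma no longer called without replicate 1 of ko pre-plasmablasts (adjusted p = 0.0623).

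The other H2A and H2B genes were lower or more variable. Hist3h2a, the H2A gene with the highest level, had 17.6 and 14.5 FPKM in ko and 9.99 and 16.9 FPKM in wt plasmablasts, against 7.81 and 10.9 FPKM in ko and 8.51 and 8.40 FPKM in wt activated B cells. Its change of 0.73 in ko (adjusted p = 0.0159) and 0.57 in wt (adjusted p = 0.0481) was small, was not called under equal totals (limma adjusted p = 0.0928 and 0.462), and its transcript overlaps Trim17 on the same strand. Leaving out replicate 1 of ko activated B cells (adjusted p = 0.127), replicate 1 of ko plasmablasts (adjusted p = 0.102), either wt activated B cell library (adjusted p = 0.127 and 0.135) or replicate 2 of wt plasmablasts (adjusted p = 0.418) also ended a limma call. Hist1h2bn had 1.53 and 1.91 FPKM in ko and 2.29 and 3.09 FPKM in wt plasmablasts, against 0.624 and 0.267 FPKM in ko and 0 and 0.693 FPKM in wt activated B cells, with no overlap. The change was 0.92 in ko (adjusted p = 0.0174) and 1.497 in wt (adjusted p = 0.001), and the ko call was lost by limma without replicate 2 of ko activated B cells (adjusted p = 0.105) or of ko plasmablasts (adjusted p = 0.0896). Hist1h2bk, with 74.2% of its windows shared, was called in ko plasmablasts over activated B cells (5.72 ± 3.19 against 1.97 ± 0.377 FPKM, SD, n = 2 each), but not by limma without either ko activated B cell library (adjusted p = 0.16 and 0.08) or replicate 2 of ko plasmablasts (adjusted p = 0.319). Hist2h2bb was called likewise (2.29 ± 0.446 against 0.581 ± 0.233 FPKM), but not by limma without replicate 2 of ko activated B cells (adjusted p = 0.0503) or of ko plasmablasts (adjusted p = 0.0529). Hist1h2ac was called in wt plasmablasts (1.93 ± 0.104 against 0.288 ± 0.00924 FPKM), at limma adjusted p = 0.0507 without replicate 1 of wt in all populations. Hist1h2bj, the H2B gene with a mean of 6.23 FPKM, varied most within a group, with 2.05 and 11.1 FPKM in ko plasmablasts, and passed in no comparison. The 4 H2A genes never called, Hist1h2ab, Hist1h2ag, Hist1h2ai and Hist1h2ak, had medians of 1.58, 1.87 and 1.83 FPKM over their values in activated B cells, pre-plasmablasts and plasmablasts.

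H3 genes encode the replication-coupled H3.1 and H3.2 proteins. The same 5 of the 10 were higher in plasmablasts than in activated B cells in each genotype, where 31.2% of all tested genes were higher in ko and 31.0% in wt. Among them Hist1h3d and Hist1h3f were at most 0.556 and 0.735 FPKM in activated B cells. They passed the rule for membership through the other populations. That rule therefore weighs on the count of these H3 genes. The highest, Hist1h3c, had 3.89 and 5.68 FPKM in ko and 6.33 and 8.64 FPKM in wt activated B cells, 8.59 and 11.1 FPKM in ko and 19.4 and 17.4 FPKM in wt pre-plasmablasts, and 9.94 and 10.1 FPKM in ko and 11.0 and 15.9 FPKM in wt plasmablasts. Its change in pre-plasmablasts over activated B cells was 0.91 in ko (adjusted p = 0.00338) and 1.20 in wt (adjusted p = 0.000575), called by limma under every alternative. Its plasmablast change of 0.76 in wt (adjusted p = 0.00792) was lost without replicate 1 of wt activated B cells (adjusted p = 0.0764) or replicate 2 of wt plasmablasts (adjusted p = 0.0822), and with libraries scaled to the same total (log2 change 0.39, adjusted p = 0.0841). Hist1h3e had 2.42 and 4.31 FPKM in ko and 4.06 and 3.88 FPKM in wt activated B cells, and the other 8 libraries lay between 6.04 and 7.77 FPKM. Plasmablasts exceeded activated B cells by 0.92 in ko (adjusted p = 0.00135) and 0.76 in wt (adjusted p = 0.00423) by limma, the second at adjusted p = 0.0789 without replicate 1 of wt in all populations and 0.0588 with libraries scaled to the same total (log2 change 0.41). Of its 50-base windows 73.4% occur in other genes. Hist2h3b, at 2.73 and 3.30 FPKM in wt pre-plasmablasts, had 0.885 and 0.478 FPKM in wt plasmablasts, a change of -1.26 (adjusted p = 0.0171). That limma call was lost without either wt pre-plasmablast library (adjusted p = 0.0615 and 0.104) or without replicate 2 of wt plasmablasts (adjusted p = 0.129). The 3 H3 genes never called, Hist1h3b, Hist1h3h and Hist1h3i, ranged from 0 to 5.78 FPKM.

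H4 genes all encode the same protein, and among them Hist1h4i stood far above the rest. Hist1h4i had 4.58 and 20.8 FPKM in ko and 18.1 and 28.2 FPKM in wt activated B cells, 17.6 and 39.2 FPKM in ko and 40.7 and 56.8 FPKM in wt pre-plasmablasts, and 21.6 and 36.5 FPKM in ko and 42.1 and 60.9 FPKM in wt plasmablasts. Replicate 2 exceeded replicate 1 in all 6 groups. The log2 change of plasmablasts over activated B cells was 1.40 in ko (SE 0.56, adjusted p = 0.0498) and 1.13 in wt (SE 0.56, adjusted p = 0.103), and the ko call was lost without replicate 1 of ko activated B cells (limma adjusted p = 0.479) and without either ko plasmablast library (adjusted p = 0.0565 and 0.241). With the term for the pattern of low values the ko change was 0.63 (adjusted p = 0.146).

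Hist1h4h and Hist1h4c differed with less spread. Hist1h4h had 2.46 and 1.84 FPKM in ko and 1.79 and 1.70 FPKM in wt activated B cells, and 3.89 to 6.70 FPKM in the 8 other libraries. Its change in plasmablasts was 0.99 in ko (adjusted p = 0.00125) and 1.32 in wt (adjusted p = 0.000175) by limma. Hist1h4c had 2.43 and 2.85 FPKM in ko and 4.24 and 2.25 FPKM in wt activated B cells, and 5.70 to 9.64 FPKM in the 8 others, with changes of 0.99 in ko (adjusted p = 0.00239) and 1.13 in wt (adjusted p = 0.00102). Hist1h4m was listed at 0 in all 4 activated B cell libraries and both ko plasmablast libraries and had 0.642 and 3.47 FPKM in wt plasmablasts, so no fold is given. Hist1h4d was called in ko pre-plasmablasts over activated B cells (6.97 ± 0.711 against 1.91 ± 1.51 FPKM, SD, n = 2 each) and in wt plasmablasts over activated B cells (6.93 ± 4.35 against 2.39 ± 0.0816 FPKM). Hist1h4f was called in pre-plasmablasts of both genotypes (2.93 ± 1.16 against 0.815 ± 0.526 FPKM in ko, 3.27 ± 1.10 against 0.740 ± 1.05 FPKM in wt), and Hist1h4a in ko plasmablasts (1.57 ± 1.01 against 0.284 ± 0.402 FPKM) and wt pre-plasmablasts (2.68 ± 0.738 against 0.488 ± 0.244 FPKM). Each of these Hist1h4a, Hist1h4d, Hist1h4f and Hist1h4m calls was lost when at least 1 single library was left out.

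Further calls of the named genes ended under settings that bear on the libraries that stood apart. With the term for the pattern of low values, limma no longer called the ko plasmablast change over activated B cells of Hist1h2bk (log2 change 0.73, adjusted p = 0.164), Hist1h2bn (adjusted p = 0.0547), Hist1h4a (adjusted p = 0.0901) and Hist3h2a (adjusted p = 0.0618). Without replicate 1 of wt in all populations it no longer called the wt pre-plasmablast change over activated B cells of Hist1h2ae (adjusted p = 0.135), Hist1h2bb (adjusted p = 0.387), Hist1h2bn (adjusted p = 0.314), Hist1h3e (adjusted p = 0.0758), Hist1h4a (adjusted p = 0.101), Hist1h4f (adjusted p = 0.108) and Hist2h3b (adjusted p = 0.21). The wt plasmablast change of Hist1h2bb over activated B cells (adjusted p = 0.207) and that of Hist2h3b over pre-plasmablasts (adjusted p = 0.16) were lost likewise. In the same fit, on fewer libraries, ko calls were lost with an unchanged log2 change for Hist1h2ae (adjusted p = 0.0915), Hist1h2bk (adjusted p = 0.0751), Hist1h4a (adjusted p = 0.0556) and Hist1h4i (adjusted p = 0.106) in plasmablasts over activated B cells, and for Hist1h2bc in pre-plasmablasts over activated B cells (adjusted p = 0.0577) and in plasmablasts over pre-plasmablasts (adjusted p = 0.0597). With libraries scaled to the same total, plasmablast calls over activated B cells were also lost for Hist1h2ae (adjusted p = 0.0689), Hist1h2bk (adjusted p = 0.0723), Hist1h4a (adjusted p = 0.066) and Hist1h4i (adjusted p = 0.0839) in ko and for Hist1h2bb (adjusted p = 0.134) and Hist1h4d (adjusted p = 0.0875) in wt.

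Annotated 3′ ends gave a further description of the genes. At least 150 annotated bases follow the stop codon in 22 of the 49 genes, which included 7 of the 9 genes averaging 5 FPKM or more and had a median level of 2.51 FPKM, against 1.62 FPKM for the other 27. In plasmablasts over activated B cells 13 of the 22 were higher and 1 lower in ko, and 14 higher and 1 lower in wt, while 7 of the 27 were higher in ko and 6 in wt, and none lower, where 31.2% of all tested genes were higher in ko and 31.0% in wt. Annotated ends differ in how completely they were recorded, and higher genes pass the test more readily, so these counts were not tested against each other. The rule for membership weighs on them too. Between 0% and 93.9% of a gene's 50-base windows occur in another gene, with a median of 43.8%, and 19 of the 49 genes share 50% or more. How the authors' software divided such fragments between genes is not given, so the values of those genes are less certain.

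The comparison of genotypes asked whether loss of Mzb1, a co-chaperone of the endoplasmic reticulum, changed these genes. Of the 49 genes 1 passed, in 1 population. By limma 0 of 49 genes were called in activated B cells (6 at an unadjusted p below 0.05; 0.0542% of all genes called), 0 in pre-plasmablasts (12 at an unadjusted p below 0.05; 0.117%) and 1 in plasmablasts (4 at an unadjusted p below 0.05; 0.407%). The median log2 change of ko over wt was -0.075 in activated B cells, -0.29 in pre-plasmablasts and 0.024 in plasmablasts, against 0.0056, 0.014 and 0.025 over all tested genes. Both ko libraries were below both wt libraries for 10 genes in activated B cells (20.4%, against 17.7% of all genes), 18 in pre-plasmablasts (36.7%, against 21.4%) and 12 in plasmablasts (24.5%, against 21.2%). Both were above for 6 (12.2%, against 18.3%), 7 (14.3%, against 25.7%) and 8 (16.3%, against 28.0%). In pre-plasmablasts the H3 class had 5 of 10 genes with ko below wt and 0 above, and H1 had 4 of 5 below and 1 above. There H2B had 4 of 14 below and 1 above, H4 4 of 12 below and 2 above, and H2A 1 of 8 below and 3 above. In plasmablasts H4 had 6 of 12 below and 0 above, H1 0 below and 1 above, and H2B 2 below and 5 above. H2A and H3 each had 2 below and 1 above in plasmablasts. The classes were not tested against each other.

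The gene called was Hist1h2bb, an H2B gene. It had 1.20 and 0.752 FPKM in ko and 3.22 and 3.48 FPKM in wt plasmablasts, 0.593 and 1.00 FPKM in ko and 3.19 and 3.05 FPKM in wt pre-plasmablasts, and 0.502 and 0.841 FPKM in ko and 1.46 and 2.23 FPKM in wt activated B cells. All 6 ko libraries were below all 6 wt libraries. The log2 change of ko over wt was -1.15 in plasmablasts (SE 0.19, adjusted p = 0.0383), -1.21 in pre-plasmablasts (adjusted p = 0.05004) and -0.76 in activated B cells (adjusted p = 0.399) by limma, and no difference between these changes passed the interaction test (unadjusted p = 0.129 to 0.835). The plasmablast call was lost when any of the 4 plasmablast libraries was left out, with adjusted p = 0.102 to 0.17 and changes of -0.99 to -1.31. It was also lost with a term for the pattern of low values (-1.46, adjusted p = 0.115) and without replicate 1 of wt in all populations (-1.19, adjusted p = 0.262). Its sequence shares 40.1% of 50-base windows with other genes, and 23 annotated bases follow the loop.

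Hist1h3c was the other gene with ko below wt in all 3 populations without overlap, as the values above show. Its log2 change was -0.37 in plasmablasts (adjusted p = 0.415), -0.85 in pre-plasmablasts (adjusted p = 0.137) and -0.56 in activated B cells (adjusted p = 0.553) by limma. Hist1h4i averaged lower in ko than in wt in each population, but the libraries overlapped in activated B cells, and the changes of -0.83, -0.84 and -1.10 in plasmablasts, pre-plasmablasts and activated B cells had an SE of 0.56 and were not called. Hist1h1c, the most abundant gene, differed by -0.31 in pre-plasmablasts (SE 0.11, adjusted p = 0.236). The 5 myeloid markers, of which 2 were tested and 0 called between the genotypes in any population, summed to 2.25 to 4.09 FPKM in ko and 0.136 to 0.353 FPKM in wt plasmablasts, to 1.097 to 4.34 FPKM in ko and 0.554 to 0.795 FPKM in wt pre-plasmablasts, and to 12.9 to 30.04 FPKM in ko and 7.89 to 15.1 FPKM in wt activated B cells, where the ranges overlap. Their part in the histone values was not tested.

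**Figure D5:**
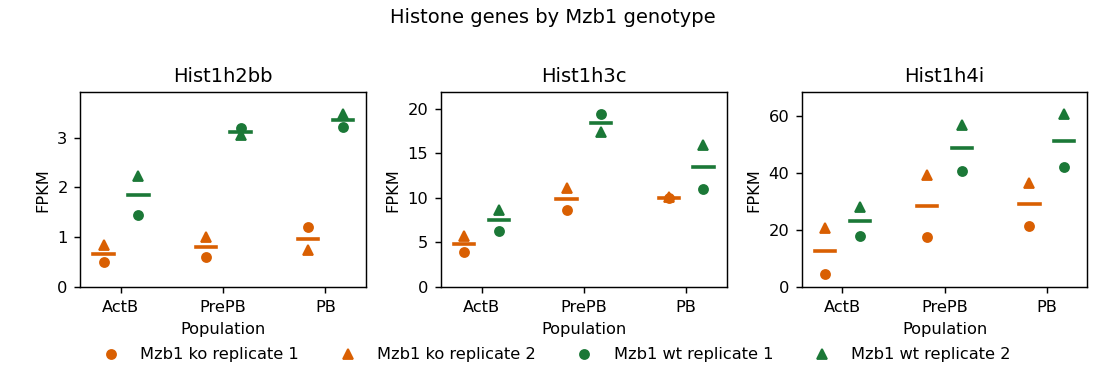
FPKM of Hist1h2bb, Hist1h3c and Hist1h4i in the 3 populations, with ko libraries left of wt libraries, 1 symbol for each library and a bar at the mean of 2. Hist1h2bb and Hist1h3c have both ko libraries below both wt libraries in all 3 populations, while Hist1h4i overlaps in activated B cells.

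In plasmablasts over activated B cells, where 31.2% of all tested genes rose and 30.9% fell in ko and 31.0% rose and 31.0% fell in wt, 6 lists of genes around the histone pathway gave the following counts. Of 12 replacement histone genes, which have introns or poly(A) signals and are transcribed outside S phase, 10 were tested; in plasmablasts over activated B cells 1 was higher and 6 lower in ko, and 2 were higher and 5 lower in wt. The linker histone H1f0, known from cells that leave the cycle, was 63.2 and 45.4 FPKM in ko and 50.6 and 59.6 FPKM in wt plasmablasts, against 10.0 and 5.93 FPKM in ko and 6.67 and 8.06 FPKM in wt activated B cells. Its limma log2 change was 2.64 in ko (adjusted p = 3.04e-06) and 2.75 in wt (adjusted p = 2.18e-06), so it shared the direction of Hist1h1c. H1fx rose to 1.54 FPKM in wt plasmablasts, against 0.388 FPKM in wt activated B cells, whereas H2afy fell to 84.0 FPKM in wt plasmablasts, against 151 FPKM in wt activated B cells, and H2afx to 110 FPKM in wt plasmablasts, against 143 FPKM in wt activated B cells.

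Of 13 genes for histone transcription and 3′ end processing, 2 were higher and 7 lower in each genotype. Slbp, the stem-loop binding protein, was 40.7 and 40.9 FPKM in ko and 42.8 and 47.5 FPKM in wt plasmablasts, against 61.8 and 56.0 FPKM in ko and 64.5 and 66.2 FPKM in wt activated B cells, and its limma log2 change was -0.52 in ko (adjusted p = 0.000457) and -0.52 in wt (adjusted p = 0.000409). The cleavage factors Cpsf3 and Cpsf2 fell by 0.79 and 0.72 on the log2 scale in wt, and Zfp473, a U7-associated zinc finger protein, rose by 0.98. Among 6 genes of histone mRNA decay 3 fell in ko and 4 in wt and none rose, with the uridylyltransferase Zcchc11 at -1.24 and the exonuclease Eri1 at -0.41 in wt. None of 16 histone chaperone genes rose, while 13 fell in ko and 12 in wt, with Nap1l1 at -1.79 and the chromatin assembly subunit Chaf1b at -1.003 in wt. Of 24 genes for S phase entry and DNA replication, 7 rose and 12 fell in ko and 5 rose and 12 fell in wt. Thymidine kinase Tk1 fell by 1.36 and Uhrf1 by 0.85, while the replication licensing factor Cdt1 rose by 1.06 in wt. Of 10 factors known to act at histone promoters, 2 rose and 4 fell in ko and 2 rose and 3 fell in wt; the octamer coactivator Pou2af1 rose by 1.94 and the H4 promoter factor Hinfp by 1.18, and the octamer factor Pou2f2 fell by 1.04 in wt. The median log2 change of the lists, in the order given, was -0.31, -0.31, -0.41, -0.44, -0.22 and -0.24 in ko and -0.30, -0.46, -0.40, -0.46, -0.16 and -0.20 in wt, against -0.0082 in ko and -0.014 in wt over all tested genes. In the comparison of ko with wt these 6 lists had 0 genes called in each of the 3 populations by limma.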

How the data were processed

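The deposited values are FPKM, 1 file per library. The submitters' processing notes list the mm9 build, Cuffnorm 2.2.1 and Cufflinks 2.2.1 with Cuffdiff, the aligner TopHat2 2.0.14, and bcl2fastq in versions 2.17.1.14 and 0.3.1; annotation, scaling and filters are not given in the sources used here. From the deposited FPKM, log2(FPKM + 1) was computed here, 11069 genes reaching 1 FPKM in 2 or more libraries were kept, and limma 3.58.1 in R 4.3.3 (limma-trend, 1 coefficient for each of 6 groups) was fitted, two-sided, with Benjamini-Hochberg adjustment over all tested genes and a threshold of 0.05. The fit was tested on simulated data. The members and gene lists were chosen with earlier results of these data known. Named were members averaging at least 5 FPKM, the 10 largest called changes per comparison, Hist1h1c, Hist1h2bc and Hist2h2be, and up to 4 genes per list. Stem-loops and shared windows came from GENCODE M21 and promoters from RefSeq (GRCm38.p6); all 49 genes matched GENCODE and 44 the promoter table. No coordinates of mm9 are given. Alternatives changed the filter, pseudocount, scaling, groups fitted, replicate block and libraries.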

Additional observations from a re-analysis of the deposited data

How the results depend on the processing

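Among 25 named genes, 300 values gave 4068 alternatives, of which 3884 kept their side of the threshold, 140 lost a call and 44 gained one. In the main fit 69 of the 300 values were called. Direction was compared only where the main or the alternative fit called the gene, and 0 of these reversed. Counts of called histone genes moved as follows. With a filter of 5 FPKM, which leaves fewer genes, plasmablasts against activated B cells had 12 in ko and 11 in wt (21 in each as reported), pre-plasmablasts against activated B cells 8 in wt (22 as reported), and plasmablasts against pre-plasmablasts 1 in wt. With no filter, pre-plasmablasts against activated B cells had 14 in wt and plasmablasts against pre-plasmablasts 1 in ko. On the compared groups only, plasmablasts against pre-plasmablasts had 4 in ko. Without replicate 1 of wt in all 3 populations, plasmablasts against pre-plasmablasts had 0 in wt. For ko against wt, the count in pre-plasmablasts was 1 under quantile normalization, equal totals and a term for the pattern of low values, and that in plasmablasts was 0 with a pseudocount of 0.1, with no filter or one of 5 FPKM, on the compared groups only, without replicate 1 of wt and with the term for the pattern. Leaving out single libraries gave 16 to 17 in ko and 14 to 23 in wt for plasmablasts against activated B cells, 12 to 16 and 13 to 17 for pre-plasmablasts against activated B cells, 1 to 2 and 1 to 3 for plasmablasts against pre-plasmablasts, and 0 for ko against wt in each population. Where 1 library remained, it was assumed to vary like the other groups. With the replicate block plasmablasts against pre-plasmablasts had 5 in ko and 3 in wt, and ko against wt 0, 0 and 1 in activated B cells, pre-plasmablasts and plasmablasts. Replicate differences correlated at -0.11 to 0.0693 across genotypes and 0.046 to 0.316 within a genotype, not above 0.1 for every pair, so the numbers were not taken to pair libraries. That wt replicate 1 has the high Xist in all 3 populations is a hint from the data that numbers share a source within wt. With the block limma called Hist1h4i in wt plasmablasts over activated B cells (adjusted p = 0.00174) and in pre-plasmablasts over activated B cells in ko (adjusted p = 0.00093) and wt (adjusted p = 0.00319), and Hist1h2bc in wt plasmablasts over pre-plasmablasts (adjusted p = 0.0491). The cause of these moves was not tested. No group exceeded 2 libraries, depth is unknown, and genes near 1 FPKM are limited by it.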
